A study of Drosophila melanogaster with 6 samples.

Results

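Juvenile hormone is the sesquiterpenoid hormone that keeps insect larvae larval, and the genes described here make it, break it down or carry its signal. They were taken by name from a list of 8 genes: jhamt for synthesis, Jhe, Jheh1, Jheh2 and Jheh3 for breakdown, and Met, gce and Kr-h1 for the response. By platform gene symbol, 5 of the 8 genes had a probe set annotated to them alone, with 6 probe sets among them, out of 10843 genes and 13966 tested probe sets on the array. These were jhamt, Jheh2, Met, gce with a pair of probe sets, and Kr-h1. The platform annotation gave no such probe set to Jhe, Jheh1 or Jheh3. For Jheh1 a probe set was found by another route, given below, and Jhe and Jheh3 were not analysed here.

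RNA from mle/mle larvae was set against RNA from wild type larvae, with 3 Affymetrix arrays in each group. The mle/mle larvae were homozygous for a mutation of maleless, whose allele the labels do not give, and were described as males picked from a stock that also held heterozygotes over a T(2-3)Tb chromosome. The wild type larvae were of the strain spelled cancon S, with no sex stated. All larvae were of the last larval instar, which ends with pupariation, and the samples were called biological replicates, with no number of larvae per sample and no age in hours. Since no label says that the samples came from separate cultures, p-values measure the spread between these RNA samples only. Strain, sex and mle genotype cannot be told apart in this design.

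In Drosophila, juvenile hormone is made in the corpus allatum, a part of the ring gland, where the methyltransferase jhamt acts late in the pathway. The hormone is broken down by an esterase and by epoxide hydrolases. It binds the paralogous bHLH-PAS proteins Met and gce, which switch on the zinc finger gene Kr-h1. The hormone declines before the larva wanders, so signals of genes that respond to it can differ with larval age.

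No juvenile hormone gene with a platform symbol passed the test between mle/mle and wild type larvae, and the largest change, of either sign, was 0.12 on the log2 scale. Of the 6 probe sets, limma called 0 at an adjusted p under 0.05 and 0 also had an unadjusted p under 0.05, where the smallest was 0.32. Over all 13966 probe sets, 0.0573% were called and 4.32% had an unadjusted p under 0.05, so a count of 0 among 6 lies near the background. The signals of the groups overlapped for all 6, while groups did not overlap for 8.36% of all probe sets. The log2 changes were positive in 3 and negative in 3, with a median of 0.003 against 0.007 over all tested probe sets. Signals are log2 RMA values per probe set, and a change is the mean of mle/mle minus the mean of wild type on that scale.

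The synthesis gene jhamt encodes the methyltransferase that turns juvenile hormone acid into the hormone. Its signals were 4.11, 4.18 and 4.08 in mle/mle larvae, against 4.06, 4.14 and 4.14 in wild type larvae. The groups overlapped in part, and all 6 arrays lay within 0.12 of each other. The means were 4.12 ± 0.05 in mle/mle and 4.11 ± 0.05 in wild type (SD, n = 3 each), a log2 change of 0.01 (SE 0.07, adjusted p = 0.9997 by limma). The 95% interval ran from -0.15 to 0.17, or from 0.899 to 1.12 times the wild type signal. Only 373 of the 13966 probe sets were dimmer on average. At such a level RMA compresses changes, so the interval bounds the deposited signal and need not bound the transcript. The corpus allatum is a small part of a whole larva, and in such samples fewer cells of a type and less RNA per cell cannot be told apart.

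The breakdown gene Jheh2 encodes an epoxide hydrolase that opens the epoxide ring of the hormone. Its probe set was the single one of the 6 above a signal of 6.52, below which the dimmest 40% of all probe sets lay. Its signals were 9.79, 9.80 and 9.97 in mle/mle larvae, against 9.74, 9.54 and 9.93 in wild type larvae. Each mle/mle array was above the wild type array of the same number, by 0.05, 0.26 and 0.04. No label says that these numbers pair the samples, and wild type replicate 3 lay above 2 of the mle/mle arrays. The mean was 9.85 ± 0.10 in mle/mle and 9.74 ± 0.20 in wild type (SD, n = 3 each). The log2 change of 0.12 (SE 0.11, 95% interval -0.14 to 0.37) did not pass the test (adjusted p = 0.9997 by limma). With the replicate number as a block its SE was 0.07, and it did not pass either (adjusted p = 0.86 by limma). Without wild type replicate 2, the lowest array, the change was 0.02, and without wild type replicate 3 it was 0.21, neither past the test.

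Jheh1, a second epoxide hydrolase gene, lies next to Jheh2 on the arm 2R, with Jheh3 next in line, by the RefSeq gene table (Release 6 plus ISO1 MT). It lists the name of 1 probe set among the synonyms of Jheh1, and it does so for 128 probe sets of this array in all. The platform annotation named 106 of these singly and gave the same gene in each case, named 2 together with another gene, and left 20 unnamed, among them the probe set of Jheh1. The probe set is therefore outside the rule by platform symbol and was added after the data were seen.

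Jheh1 had the largest change of the 7 probe sets, and it rested on 2 of the mle/mle arrays. Its signals were 8.78, 8.42 and 8.86 in mle/mle larvae, against 8.38, 8.45 and 8.39 in wild type larvae. Replicates 1 and 3 of mle/mle lay above every wild type array, while replicate 2 lay among them. The means were 8.69 ± 0.24 in mle/mle and 8.40 ± 0.04 in wild type (SD, n = 3 each). The log2 change was 0.28 (SE 0.12, 95% interval 0.01 to 0.55), or 1.22 times the wild type signal. It had an unadjusted p of 0.041 and did not pass after adjustment (adjusted p = 0.9997 by limma).

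Jheh1 passed the test in 2 of the other settings tried. Without mle/mle replicate 2 the log2 change was 0.42 (adjusted p = 0.064 by limma), in a fit that called 1.04% of the whole table. Leaving out the arrays numbered 2 in both groups gave 0.44 (adjusted p = 0.018 by limma), where 3.24% of probe sets were called. These fits remove the mle/mle array that went against the change, which favors a pass. The arrays numbered 1 or 3 were not left out of both groups. Without mle/mle replicate 1 or 3 alone, the change was 0.24 and 0.19 (adjusted p = 0.9999 and 0.9994 by limma). Array weights gave 0.39 (adjusted p = 0.0055 by limma), where 11.2% were called and the weight estimate had not converged. That fit rested mostly on wild type replicate 1 (weight 7.10) and mle/mle replicate 1 (3.00), against 0.28 to 0.87 for the other arrays. With the replicate number as a block the change stayed at 0.28 (adjusted p = 0.65 by limma), with 0.043% called. None of these fits called any of the other 6 probe sets.

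**Figure D1:**
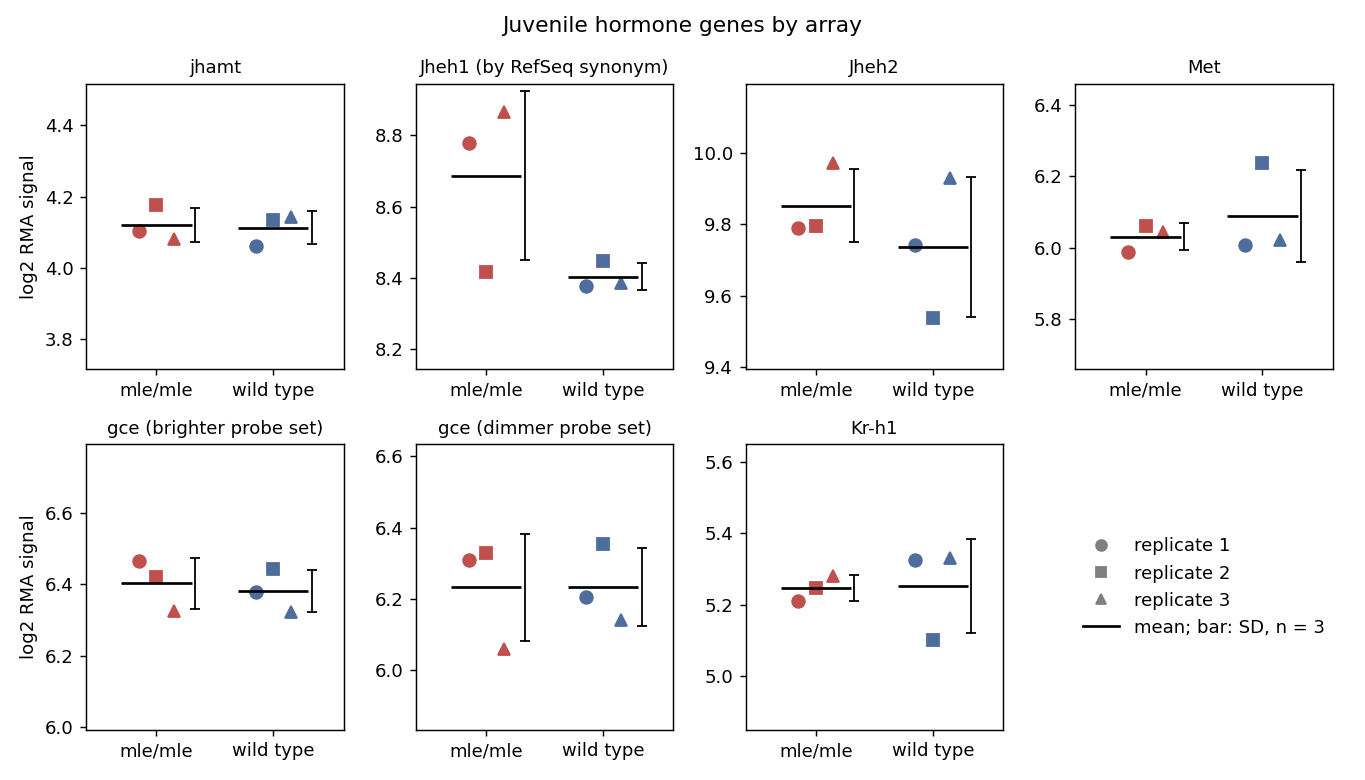
Log2 RMA signal (vertical axis, the same span in each panel) of each juvenile hormone probe set on each array, with mle/mle left of wild type, symbols for the replicate number, and a line and bar for mean and SD (n = 3). The groups overlap in every panel, and for Jheh1 the mle/mle replicates 1 and 3 stand at 8.78 and 8.86 above the wild type arrays at 8.38 to 8.45.

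Both receptor genes lie on the X chromosome, whose transcription in males depends on the complex that contains the maleless helicase. Met was found through flies that resist a juvenile hormone analog, and its product binds the hormone. Its signals were 5.99, 6.06 and 6.05 in mle/mle larvae, against 6.01, 6.24 and 6.02 in wild type larvae. Wild type replicate 2 stood above the other 5 arrays, which lay between 5.99 and 6.06. The means were 6.03 ± 0.04 in mle/mle and 6.09 ± 0.13 in wild type (SD, n = 3 each). The log2 change of -0.06 (SE 0.08, 95% interval -0.25 to 0.14) did not pass the test (adjusted p = 0.9997 by limma), and it was 0.02 without wild type replicate 2.

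The paralog gce overlaps in function with Met in larvae, and neither of its probe sets passed the test. The brighter one, so named here by its RMA mean, read 6.46, 6.42 and 6.32 in mle/mle larvae, against 6.38, 6.44 and 6.32 in wild type larvae. Its log2 change was 0.02 (SE 0.07, 95% interval -0.15 to 0.19, adjusted p = 0.9997 by limma). The dimmer one read 6.31, 6.33 and 6.06 in mle/mle larvae, against 6.21, 6.36 and 6.14 in wild type larvae. Its log2 change was -0.002 (SE 0.10, 95% interval -0.23 to 0.23, adjusted p = 0.9997 by limma). In both probe sets of gce, replicate 3 was the lowest array of each group. Their correlation over the 6 arrays was 0.93, which describes probe sets that share arrays and a gene.

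With RMA, the changes of Met and gce lay inside the usual range of X genes. Their PLIER changes, given below, were not set against such a range. Over 1763 X genes the median log2 change was -0.02, with the 5th and 95th percentiles at -0.17 and 0.12. Over 8982 genes of the large autosome arms it was 0.01, with these percentiles at -0.15 and 0.21. The mle probe set itself read 5.32, 5.43 and 5.28 in mle/mle larvae, against 5.38, 5.56 and 5.40 in wild type larvae, a log2 change of -0.10 (SE 0.08, adjusted p = 0.9997 by limma). It was -0.04 without wild type replicate 2. In the PLIER table mle read 5.57, 5.59 and 5.62 in mle/mle larvae, against 5.72, 5.68 and 6.19 in wild type larvae. The groups did not overlap there, and the change of -0.27 did not pass (adjusted p = 1.0 by limma). Within the array codes of that table, described below, it was -0.12 over 4 arrays and -0.57 over 2. Without the allele, this signal is no check of the labels.

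Kr-h1 is the main response gene of the pathway and stands closest to a readout of hormone action. Its signals were 5.21, 5.25 and 5.28 in mle/mle larvae, against 5.33, 5.10 and 5.33 in wild type larvae. All 3 mle/mle arrays lay between the lowest and the highest wild type array. The means were 5.25 ± 0.04 in mle/mle and 5.25 ± 0.13 in wild type (SD, n = 3 each). The log2 change of -0.01 (SE 0.08, 95% interval -0.20 to 0.19) did not pass the test (adjusted p = 0.9997 by limma). In ratios, the interval reached from 0.869 to 1.14 times the wild type signal. Without wild type replicate 2 the change was -0.08, also not past the test. The probe set was dim, with 15.6% of probe sets dimmer, so the compression named for jhamt applies to it.

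Wild type replicate 2 set much of the spread of these genes. It was the lowest of the 6 arrays for Jheh2 and Kr-h1 and the highest for Met and the dimmer probe set of gce. Over the 6 arrays the correlation of Kr-h1 with Met was -0.80, and without that array it was 0.08 over 5. That of Kr-h1 with Jheh2 was 0.77, and 0.25 without it. The correlation of Jheh2 with the dimmer probe set of gce was -0.81, and -0.79 without it. These values share arrays and normalization and are given as a description.

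The second deposited table, of log2 PLIER signals, gave wider intervals and again called 0 of the 6 probe sets, with 0.0286% called over the whole table. There jhamt averaged 6.51 ± 0.12 in mle/mle and 6.36 ± 0.08 in wild type (SD, n = 3 each), a log2 change of 0.15. Jheh2 changed by 0.08, Kr-h1 by 0.04 and the dimmer probe set of gce by 0.06, none past the test. Met averaged 6.25 ± 0.24 in mle/mle and 6.48 ± 0.17 in wild type (SD, n = 3 each), a log2 change of -0.24 that also did not pass.

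The brighter probe set of gce, so named by RMA, was the one whose value depended most on the table. With PLIER the other gce probe set was brighter, averaging 7.64 in mle/mle and 7.58 in wild type. The one named brighter by RMA averaged 5.90 in mle/mle and 6.20 in wild type there. Its PLIER signals were 6.07, 5.84 and 5.80 in mle/mle larvae, against 6.48, 6.51 and 5.63 in wild type larvae. The log2 change was -0.30 in that table (adjusted p = 1.0 by limma), where RMA gave 0.02. Column names of the PLIER table hold an array code, shared by 4 arrays in one case and by 2 in the other, with as many mle/mle as wild type arrays in each. Within the code of 4 arrays the change was -0.54 (unadjusted p = 0.012, adjusted p = 1.0 by limma), and within the code of 2 arrays the difference was 0.17, with no test. The other probe set of the same gene differed by 0.08 and 0.02 within these codes.

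For Jheh1 the PLIER signals were 8.25, 7.56 and 8.32 in mle/mle larvae, against 7.78, 7.67 and 7.85 in wild type larvae. Again 2 mle/mle arrays were high and 1 was not. The log2 change was 0.28 (SE 0.20, adjusted p = 1.0 by limma), the same size as with RMA. Within the codes of 4 and 2 arrays it was 0.18 and 0.48.

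**Figure D2:**
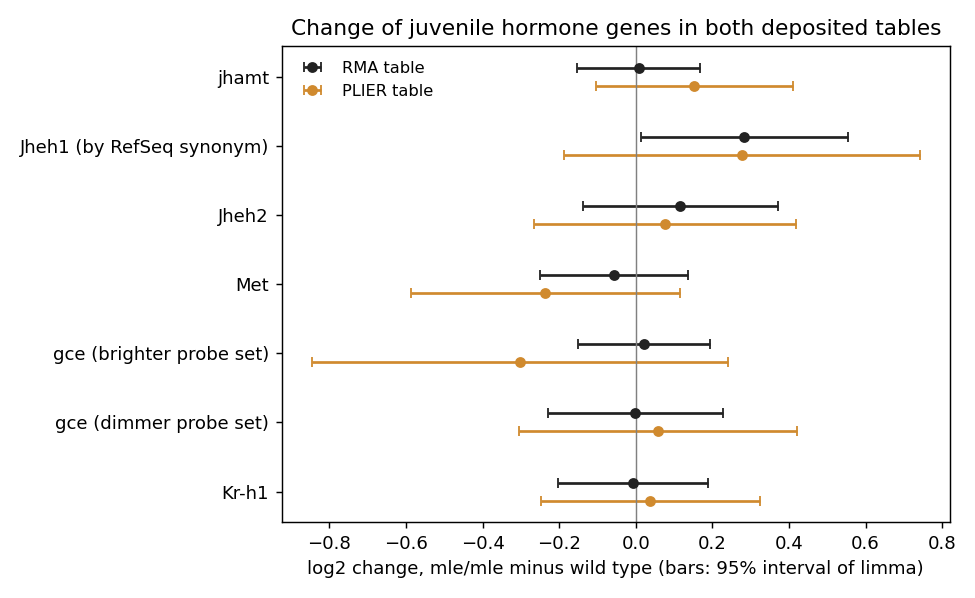
Log2 change of mle/mle minus wild type (horizontal axis) of each juvenile hormone probe set with the 95% interval of limma, from the RMA table above and the PLIER table below it. In the RMA table the interval of Jheh1, from 0.01 to 0.55, is the single one that leaves out 0. The gce probe set named brighter by its RMA mean reads 0.02 with RMA and -0.30 with PLIER.

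The other genes of the pathway were read in 3 lists. Of the 7 enzymes that build isoprenoid precursors through mevalonate, 5 were measured and 0 were called, with a median log2 change of 0.01 against 0.007 over all genes. Hmgs, the HMG-CoA synthase, had the smallest p. Its signals were 8.83, 8.66 and 8.97 in mle/mle larvae, against 8.51, 8.50 and 8.61 in wild type larvae. The groups did not overlap, and the log2 change of 0.28 (SE 0.09) did not pass the test (adjusted p = 0.80 by limma). Without the arrays numbered 2 in both groups the change was 0.34 (adjusted p = 0.075 by limma). With array weights, which called 11.2% of all probe sets, 1 gene of this list was called higher. The other probe set of Hmgs, which was dimmer, differed by -0.004. Fpps, which makes the farnesyl diphosphate from which the hormone is built, differed by -0.07.

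Of 7 allatostatins and receptors, peptides that in other insects restrain the corpus allatum, 3 were measured and 0 were called (median -0.003). Mip, the myoinhibitory peptide gene, had the smallest p and differed by -0.14 (SE 0.12, adjusted p = 0.9997 by limma), while AstC and its receptor gene AstC-R1 both lay within 0.01 of 0.

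Of 16 partners, response genes and related genes, 11 were measured and 0 were called (median 0.01, with 7 positive and 4 negative). The coactivator gene tai, whose product pairs with Met and gce, differed by 0.06. Jhedup, a carboxylesterase gene next to Jhe, had the smallest p and differed by -0.11 (SE 0.09, adjusted p = 0.9997 by limma). The chaperone gene Hsp83, whose product binds Met, was named through the RefSeq synonyms like Jheh1 and differed by -0.02.

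The gene br encodes the Broad factors that specify the pupa. Its brightest probe set read 9.28, 9.65 and 9.42 in mle/mle larvae, against 9.83, 9.26 and 9.76 in wild type larvae. Replicate 2 was the highest mle/mle array and the lowest wild type array. The log2 change was -0.17 (SE 0.16, adjusted p = 0.9997 by limma), and without replicate 2 of both groups it was -0.44 (adjusted p = 0.025 by limma). The other probe sets of br differed by 0.05 and 0.18 with all arrays. Of the 11 measured genes, 1 was called lower without replicate 2 of both groups, where 3.24% of all probe sets were called. With array weights, which called 11.2% of all probe sets, 2 were called lower.

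A family of proteins that resemble the juvenile hormone binding proteins of other insects carries the symbols Jhbp1 to Jhbp16 in RefSeq, and this list was added after the data were seen. Of its 14 genes listed there, 12 were measured and 0 were called (median 0.04, with 7 positive and 5 negative). Jhbp1 had the smallest p and the largest change, 0.24 (SE 0.19, adjusted p = 0.9997 by limma). Its wild type arrays lay at 8.17, 7.48 and 8.24, and without replicate 2 of both groups the change was -0.07.

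**Figure D3:**
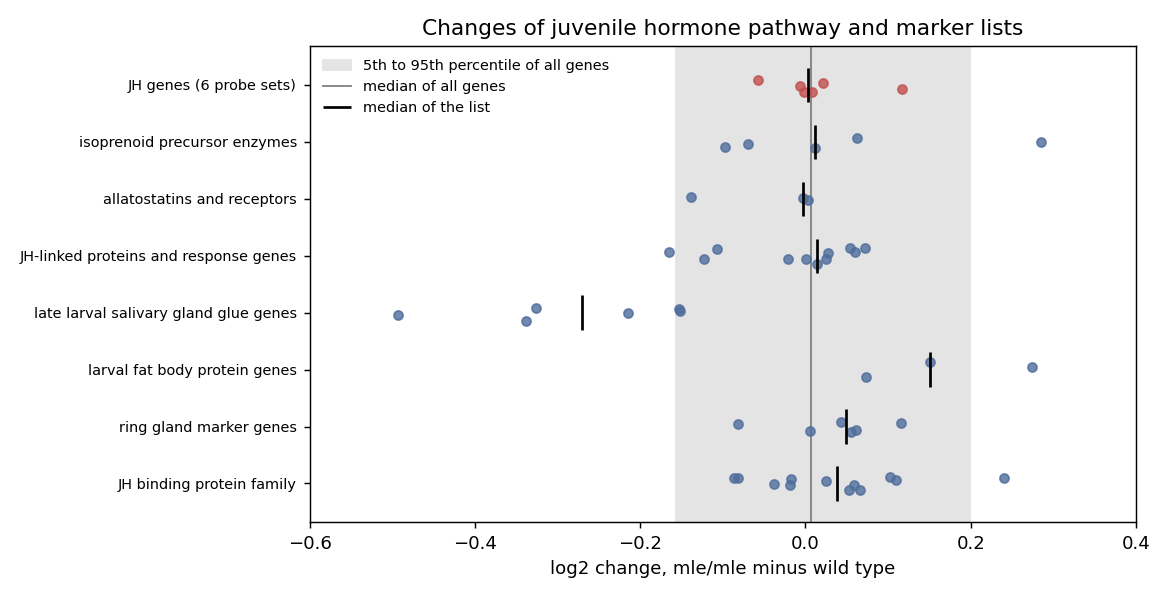
Log2 change of mle/mle minus wild type (horizontal axis) of each measured gene of the pathway and marker lists, with the median of each list, over the 5th to 95th percentile of all genes in grey. The 6 juvenile hormone probe sets lie between -0.06 and 0.12, inside the grey band. The glue genes lie at or below -0.15, with Sgs1 and Sgs7 just inside the lower edge of the band at -0.156.

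Marker lists of larval tissues and stage were read beside these values. Of 8 ring gland markers 6 were measured and 0 were called (median 0.05). Akh, the adipokinetic hormone gene of the corpora cardiaca, had the smallest p and differed by 0.12 (adjusted p = 0.9997 by limma). Of 6 fat body protein genes 3 were measured and 0 were called (median 0.15), and Fbp1 had the smallest p with 0.27 (adjusted p = 0.9997 by limma). All 6 salivary gland glue genes, which are switched on late in the last instar, were measured. They had negative changes, from -0.49 to -0.15, with 0 called (median -0.27), and Sgs8 had the smallest p with -0.49 (adjusted p = 0.32 by limma). The count of glue genes called lower was 1 without mle/mle replicate 2, where 1.04% of all probe sets were called. With array weights, which called 11.2%, it was 5, and 1 gene had a positive change of 0.13. Without the arrays numbered 2 in both groups, where 3.24% were called, it was 3. There Sgs8 was at -0.67, Sgs5 at -0.56 and Sgs4 at -0.52 (adjusted p = 0.0019, 0.0082 and 0.0095 by limma). The mean deviation of the 6 glue genes per array was -0.26, 0.03 and -0.19 in mle/mle, against 0.13, 0.12 and 0.18 in wild type. The mle/mle arrays with the lowest glue signals, replicates 1 and 3, were those with high Jheh1. They also had the highest fat body signals as a mean over genes. The mean deviation of the 3 fat body genes was 0.11, -0.09 and 0.23 in mle/mle, against -0.09, -0.22 and 0.06 in wild type. Of these genes Fbp2 alone had this order, with 12.41, 11.54 and 12.60 in mle/mle. Fbp1 was highest in mle/mle replicate 2, with 12.92, 13.18 and 13.05. For Lsp2, mle/mle replicate 2 (13.93) lay just above replicate 1 (13.92). The part of larval age in the values of the juvenile hormone genes was not tested.

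Genes whose signals followed a member most closely were sought among 6900 genes above the dim level, by Pearson correlation over the 6 arrays, as a description. Jheh1 was followed by CG31233 (0.999) and by the cytochrome P450 gene Cyp4e3 (0.998), which changed by 0.39 and 0.64 on the log2 scale. The closest to Jheh2 were dikar (0.993) and Mbs (0.990), and to Kr-h1 mlt (0.994) and atl (0.990). For Met they were CG1231 (0.994) and Pfrx (0.988), for gce CG12935 (0.991) and CG10000 (0.979), and for jhamt CG6432 (0.991) and CG3246 (0.986). Every member thus had genes at 0.979 or above, whatever its own change.

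Leaving out 1 array at a time ended or made no call among the 6 probe sets. The change of jhamt then ran from -0.02 to 0.03, that of Jheh2 from 0.02 to 0.21 and that of Met from -0.10 to 0.02. Kr-h1 ran from -0.08 to 0.03, the brighter probe set of gce from -0.01 to 0.06 and the dimmer one from -0.05 to 0.08. Jheh1 kept its sign, from 0.19 to 0.42.

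**Figure D4:**
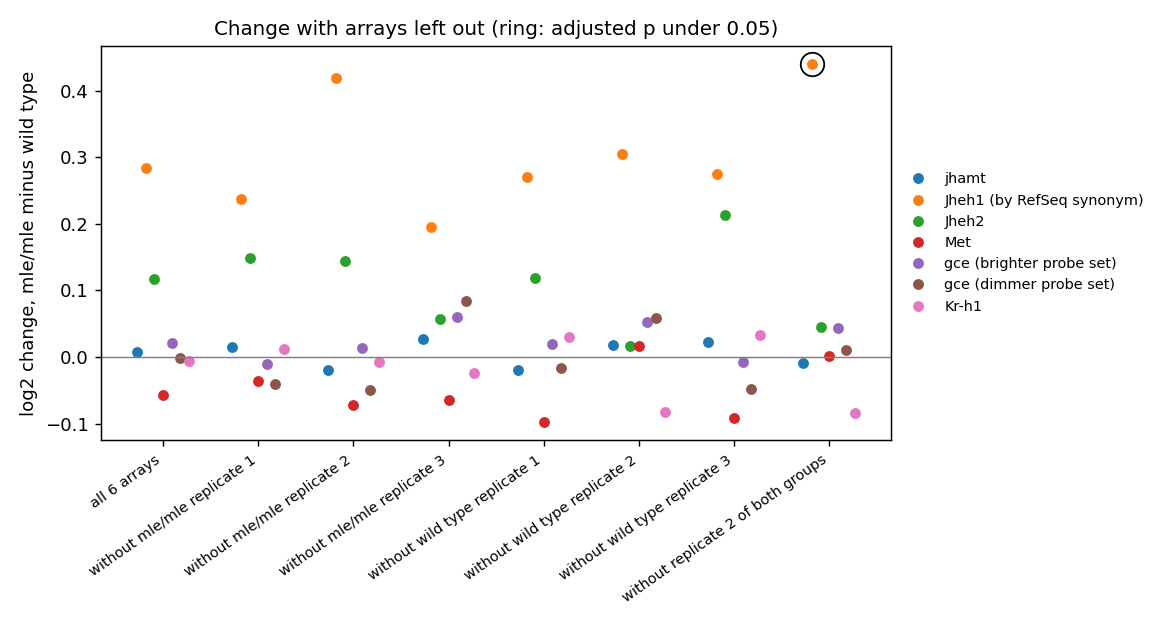
Log2 change of mle/mle minus wild type (vertical axis) of each juvenile hormone probe set with all 6 arrays, without each array in turn and without replicate 2 of both groups, where a ring marks an adjusted p under 0.05. Jheh1 stays above 0 throughout and is ringed at 0.44 in the last position, Jheh2 also stays above 0, and the other 5 probe sets lie on both sides of it.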

How the data were processed

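Per the submitters' processing notes, the authors used RMA for the log2 signals of the series' value table, from which all main values come. The other deposited table holds log2 signals of PLIER with 16 added, per the file headers, and its columns show the group but no replicate number. Versions are not given in the sources used here, nor is the normalization between arrays. Of 14010 probe sets, 44 controls were left out. Names came from the platform annotation, updated through RefSeq (12393 probe sets by Entrez ID, 4 by symbol). The probe set with the highest mean stood for a gene. The 13966 probe sets were fitted together with limma 3.58.1 (lmFit, eBayes) under R 4.3.3. Tests were two-sided, p-values were adjusted by Benjamini-Hochberg over the whole table, and a call needed an adjusted p under 0.05. The number of arrays limits the precision. Figures used matplotlib 3.10.9 in Python 3.11.15.

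Members and lists were chosen with earlier results of these data known. The rule named every member, the gene with the smallest p in each list, called genes, and the 2 genes most like each member. Arrays with the same number in their titles had correlations of 0.17, 0.28 and 0.52 between deviations from group means. Arrays of unlike number were not compared, so these correlations cannot show whether the numbers pair the samples. The reported values come from the fit without the replicate number, and the fit with it as a block is an alternative. The script was tested on simulated data. Alternatives were the PLIER table with and without its array code, quantile normalization, a dim filter, the replicate block, trend and robust settings of eBayes, array weights, gene means over probe sets, and leaving out arrays. The arrays of a shared number were left out of both groups for number 2 only.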

Additional observations from a re-analysis of the deposited data

How the results depend on the processing

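Under all 16 alternatives, limma called 0 of the juvenile hormone probe sets with a platform symbol. At an unadjusted p under 0.05 there was 1, the brighter probe set of gce within the array code of 4 arrays. With the dim filter only Jheh2 was left to test. The replicate block changed no call among these genes or for Jheh1. The count over all probe sets, 8, was 6 with the replicate block, 4 with the PLIER table, 1 with its array code as a block, 0 within the code of 4 arrays and 1560 with array weights. It ran from 0 to 145 without 1 array and was 453 without the arrays numbered 2.

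Changes near 0 turned in sign without passing the test. With the PLIER table, with and without the array code as a block, the brighter probe set of gce was at -0.302, the dimmer at 0.057 and Kr-h1 at 0.037. Within the code of 4 arrays these were -0.539, 0.077 and 0.071. Array weights gave 0.052 for the dimmer probe set of gce. Without the arrays numbered 2 the change was -0.0087 for jhamt, 0.0023 for Met and 0.0103 for the dimmer probe set of gce. Without 1 array, changes ran from -0.0198 to 0.0269 for jhamt, -0.0976 to 0.0165 for Met, -0.0096 to 0.0608 and -0.050 to 0.0848 for the brighter and the dimmer probe set of gce, and -0.0827 to 0.0329 for Kr-h1. The cause was not tested. Jheh2 and Jheh1 kept their sign in every setting with a test. Within the array code of 2 arrays, with no test, Jheh2 was at -0.0014. RMA compresses dim signals, which limits all 6 probe sets but that of Jheh2.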
